A study of Mus musculus with 18 samples.

Results

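The data concern how the response to loss of Yap and Taz differed between 2 stages of osteoblast differentiation in O9-1 cells. The response on a day is the difference between cells with and without knockdown, both treated with FGF2, and the subject here is the response at d5 less the response at d2.5. The 12 of 18 libraries of the series that enter this difference were used, 3 replicates in each of 4 groups, and all 13911 genes that passed a filter on low counts were tested for it. O9-1 cells are a mouse line used as a model of the cranial neural crest, the embryonic cell population that gives rise to most of the facial skeleton, and they can be driven towards bone in culture. All 12 libraries came from wild-type O9-1 cells cultured in osteoblast differentiation medium with the growth factor FGF2. The Ctrl+FGF2 cells had received a scrambled siRNA (siCtrl), and the Y/T dKD+FGF2 cells a pool of siRNAs against Yap and one against Taz (siY/T), both by lipid transfection. Cells were collected at d2.5 and at d5 of differentiation. The other 6 libraries, from control cells with vehicle in place of FGF2, were left out, and a knockdown without FGF2 was not analysed here, so the response is that of FGF2-treated cells. A knockdown lowers its targets without removing them, and 1 cell line stood for the neural crest.

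Yap and Taz are the transcriptional co-activators of the Hippo pathway. When the kinases Lats1 and Lats2 are inactive, Yap and Taz enter the nucleus, bind Tead transcription factors and switch on genes of proliferation, matrix and the cytoskeleton. FGF2 binds FGF receptors and activates ERK1/2, which induces its own inhibitors (Dusp phosphatases, Spry and Spred proteins) together with early response transcription factors. Both pathways are studied in skeletal progenitors as regulators of growth and differentiation. Osteoblast differentiation runs from Runx2 and Sp7 to the matrix proteins of bone.

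Gene counts per library lay between 10377151 and 14004459 (median 12130833.5). Levels are given in CPM, gene counts scaled to a common library total. The first principal component, with 89.1% of the variance, separated the days. The labels record the batch as the day, so day and batch cannot be told apart in any value below that sets d5 beside d2.5. Within a day the knockdown and control libraries shared the batch. Among the d5 Ctrl+FGF2 libraries, replicates 1 and 2 stood farthest apart of all replicate pairs. The labels do not say whether replicates were separate cultures, so p-values measure the spread between these samples, which may be technical. Markers of neural crest derived mesenchyme summed to between 12075 and 12414 CPM at d2.5 and between 28343 and 35174 CPM at d5. Col1a1, also a bone collagen, was the highest of them with a mean of 10792 CPM, and the sum at d5 follows it in large part. The 8 immune markers summed to at most 5.58 CPM, with Lyz2, Itgam, Cd3e and Adgre1 at 0. Cartilage markers summed to at most 437 CPM and adipocyte markers to at most 55.6 CPM. Sox10 and Foxd3, factors of migrating neural crest and glia, were at 0 in all 12 libraries, while other neural crest factors such as Pax3 and Snai2 were detected. In bulk RNA, fewer cells of a type and less RNA per cell cannot be told apart, which holds for every level given here.

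Both siRNA targets were lowered on both days. Yap1 encodes Yap. Yap1 measured 134, 128 and 130.2 CPM in the d2.5 Ctrl+FGF2 libraries and 66.4, 66.2 and 70.9 CPM in the d2.5 Y/T dKD+FGF2 libraries, then 161, 149 and 154 CPM in control and 74.7, 67.7 and 70.6 CPM in knockdown libraries at d5. The groups did not overlap on either day, and 51.8% of the control level was left at d2.5 and 46.0% at d5. Of all genes tested, the groups failed to overlap in 38.6% at d2.5 and in 43.3% at d5. The difference between the days was small and only just called, at a log2 of -0.17 ± 0.06 (edgeR quasi-likelihood test, Benjamini-Hochberg adjusted p = 0.047), and the call held in 4 of 12 fits without 1 library. Wwtr1 encodes Taz. At d2.5, Wwtr1 stood at 226, 223 and 227 CPM in control and 144, 132 and 138 CPM in knockdown libraries, and at d5 at 216, 222 and 218 CPM in control and 123, 129 and 124 CPM in knockdown libraries. Here 61.1% was left at d2.5 and 57.4% at d5, with a log2 difference of -0.09 ± 0.05 (edgeR, adjusted p = 0.23) that was not called.

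Knockdown changed 3359 genes at d2.5, which is 24.1% of those tested, and 4763 genes at d5, or 34.2%. The difference between the days was itself called for 3340 genes (24.0%). Of these, 1777 genes (12.8% of those tested) had a more positive effect at d5 and 1563 (11.2%) a more negative one. Knockdown raised 11.4% of all genes and lowered 12.7% at d2.5, and raised 16.9% and lowered 17.3% at d5. These shares are the background for the counts in every gene list below. The lists were chosen with earlier results of these data known, so their shares and their ranking are descriptive. A gene is called here when its adjusted p in edgeR's quasi-likelihood test is under 0.05, and effects are log2 ratios of Y/T dKD+FGF2 to Ctrl+FGF2, given with their standard errors. Most effects were modest. The median size of a called effect was 0.23 at d2.5 and 0.32 at d5 on the log2 scale, and 901 of the called differences (6.48% of genes tested) reached 1.5-fold and 345 (2.48%) reached 2-fold. An effect of 2-fold or more was called in 83 genes (0.597%) at d2.5 and in 455 (3.27%) at d5. The median difference over all genes was -0.0024.

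The 3340 genes fell into classes by the day on which knockdown had a called effect. The largest class, with 1626 genes (11.7% of those tested), appeared, which means that an effect was called at d5 and not at d2.5. In 796 genes (5.72%) the effect faded, being called at d2.5 and not at d5. In 423 genes (3.04% of those tested) the effect reversed, with calls of opposite sign on the 2 days. The effect grew in 257 genes (1.85%) and shrank in 45 (0.323%) that were called in the same direction on both days, and 193 genes (1.39%) were called on neither day and only for the difference. A call on 1 day alone did not make a difference between days, since 2478 genes of that kind had no called difference. Of 1611 genes called on both days, 1188 kept their direction and 886 of those had no called difference.

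**Figure D1:**
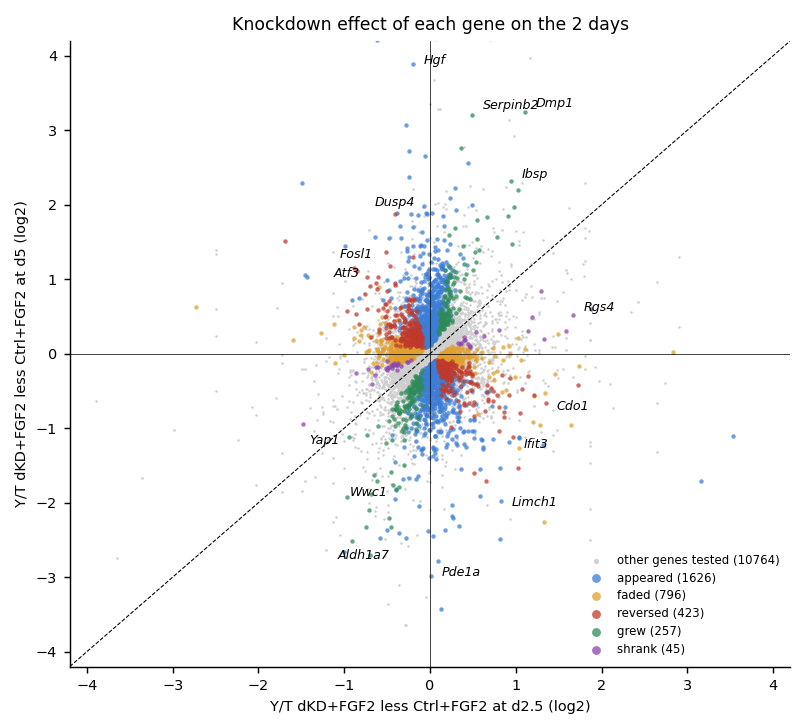
Knockdown effect of every tested gene at d2.5 (horizontal axis, log2) against d5 (vertical axis, log2), with the 5 main classes of called differences in colour, all other genes in grey and the line of equal effects dashed. The spread along the vertical axis exceeds that along the horizontal one, and the 1626 genes that appeared (blue) form an upright band; 5 genes lie outside the axes.

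Reversed genes of the 2 directions differed in how their level changed with time. Of the 423 reversed genes, 239 went from lower to higher under knockdown and 184 from higher to lower. The 184 genes of the second kind mostly rose from d2.5 to d5 in control cells, with 156 called higher at d5 and 20 lower, and a median of 0.90 on the log2 scale against 0.36 in knockdown cells. The 239 genes of the first kind mostly fell with time in control cells, with 146 called lower at d5 and 70 higher, and a median of -0.39 against 0.16 in knockdown cells. Over all genes tested these medians were 0.017 in control and -0.0012 in knockdown cells. These day values share their libraries with the difference itself and describe it from another side.

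**Figure D2:**
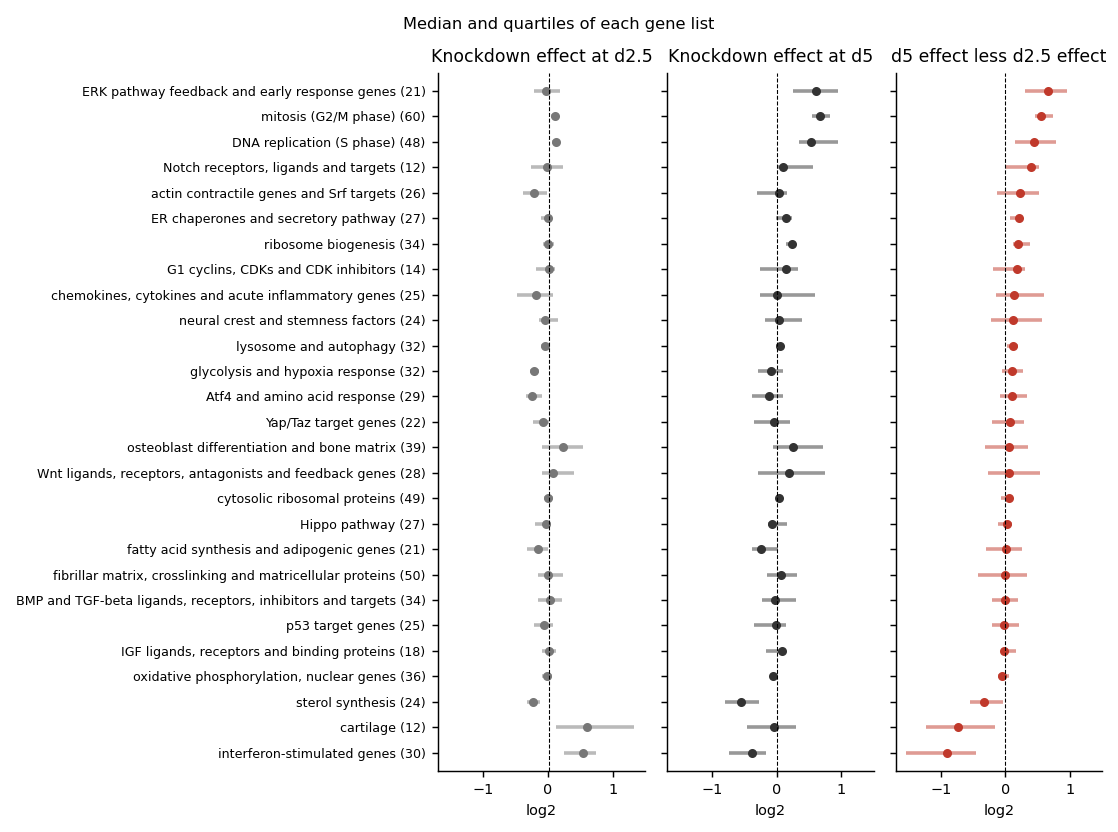
Median (point) and quartiles (bar) of the knockdown effect at d2.5, at d5 and of their difference (log2) for 27 gene lists, with the number of members tested in brackets and the median of all genes as a dashed line. ERK feedback, mitosis and replication genes lie highest in the difference, and interferon-stimulated, cartilage and sterol genes lowest.

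Interferon-stimulated genes had the lowest median difference of the 27 lists, with effects on either side of 0 on the 2 days. They encode antiviral effectors and sensors (Ifit, Oas and Gbp families) and the factors that induce them (Stat2, Irf7, Irf9). At d2.5 knockdown raised 15 of the 30 members tested and lowered none, where 11.4% and 12.7% of all genes were, with a median of 0.53. At d5 it lowered 15 and raised 1, where 17.3% and 16.9% of all genes were, with a median of -0.38. The difference between the days was called below 0 for 22 members and above 0 for 1, where 11.2% and 12.8% of all genes were, with a median of -0.91. The point estimate lay below 0 in 29 of 30. The exception was Irf1, whose effect was 0.13 ± 0.06 at d2.5 and 0.40 ± 0.06 at d5.

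Interferon-stimulated genes are known for the interferon-stimulated response element (ISRE) in their promoters, here read on either strand as GAAA, any 2 bases and GAAA. The promoter bases before the gene start of the 4 members with the largest called differences among those that hold a match are shown, so that the shared letters can be seen. They are from RefSeq on GRCm38.p6 and run 5′ to 3′ on the gene's strand up to the base before the start. The matches, in capitals, read on the opposite strand to the gene. The stretches are chr19:34607759-34607956 (+) for Ifit3b, chr19:34583363-34583528 (+) for Ifit3, chr3:142530236-142530335 (+) for Gbp7 and chr19:34640775-34640888 (+) for Ifit1, all on the plus strand.
Ifit3b: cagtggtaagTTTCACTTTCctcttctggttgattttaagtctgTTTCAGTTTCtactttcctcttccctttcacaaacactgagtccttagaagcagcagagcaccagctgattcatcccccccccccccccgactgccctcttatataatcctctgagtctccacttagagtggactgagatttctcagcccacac
Ifit3: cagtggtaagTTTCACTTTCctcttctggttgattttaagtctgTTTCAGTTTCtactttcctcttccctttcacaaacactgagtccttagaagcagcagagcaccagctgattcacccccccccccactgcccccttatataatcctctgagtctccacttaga
Gbp7: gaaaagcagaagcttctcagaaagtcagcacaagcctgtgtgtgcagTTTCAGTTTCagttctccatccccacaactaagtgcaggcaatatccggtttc
Ifit1: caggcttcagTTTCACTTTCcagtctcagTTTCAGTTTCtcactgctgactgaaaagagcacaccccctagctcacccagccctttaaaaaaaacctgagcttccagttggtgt
A match stood within 250 bases before the start in 9 of the 22 interferon-stimulated genes with a promoter in the table (40.9%), and in 3.08% of all 9603 tested genes with one. It stood in 10 of 142 genes (7.04%) that reversed from higher to lower, and in 3 of 186 (1.61%) that reversed the other way. Genes of the list that reversed, such as Ifit3 and Ifit3b, are counted in both places, so the 7.04% is not a separate observation. A match is a description of the letters and does not show that a factor binds there.

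Ifit3, an antiviral protein that binds other Ifit proteins, was the list member among the most reversed genes. Ifit3 measured 2.01, 1.70 and 1.62 CPM in the d2.5 Ctrl+FGF2 libraries and 3.62, 3.86 and 2.98 CPM in the d2.5 Y/T dKD+FGF2 libraries, then 7.07, 8.76 and 6.74 CPM in control and 3.69, 3.18 and 3.59 CPM in knockdown libraries at d5. The groups did not overlap on either day: knockdown libraries were higher at d2.5 and lower at d5. The effect was 0.97 ± 0.20 at d2.5 and -1.12 ± 0.16 at d5, and the difference -2.09 ± 0.26 (edgeR, adjusted p = 3.1e-07). Control cells went up by 2.08 (log2) between the days, while the fitted change in knockdown cells was 0 to 2 decimals. Ifit3b, a near-identical neighbouring gene, had a difference of -2.56 ± 0.44 (adjusted p = 5.8e-05), and the split of reads between these copies is uncertain. Oas2, which makes the second messenger that activates RNase L, stayed under 2 CPM in all libraries with a difference of -2.30 ± 0.64 (adjusted p = 0.0083). At d5 Oas2 had 20 counts in control and 8 in knockdown libraries. Ifi44, another interferon-induced gene, faded. At d2.5, Ifi44 stood at 1.44, 2.81 and 1.56 CPM in control and 4.80, 4.17 and 4.43 CPM in knockdown libraries, and at d5 at 2.88, 3.47 and 4.65 CPM in control and 2.15, 2.43 and 2.87 CPM in knockdown libraries. Its groups were apart on both days, in opposite directions, with an effect of 1.21 ± 0.22 at d2.5 and -0.57 ± 0.23 at d5 of which the first alone was called. For Isg15, a ubiquitin-like modifier, the difference was -0.07 ± 0.30 and not called.

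The levels of these genes were low, with Ifit3 under 10 CPM throughout, which limits the precision of each. DESeq2 called 13 of the 30 below 0. With at least 10 counts required in every library, 22 members were tested and 17 called below 0. Across the fits that left out 1 library, between 19 and 22 were called below 0 and the median lay between -1.01 and -0.81.

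**Figure D3:**
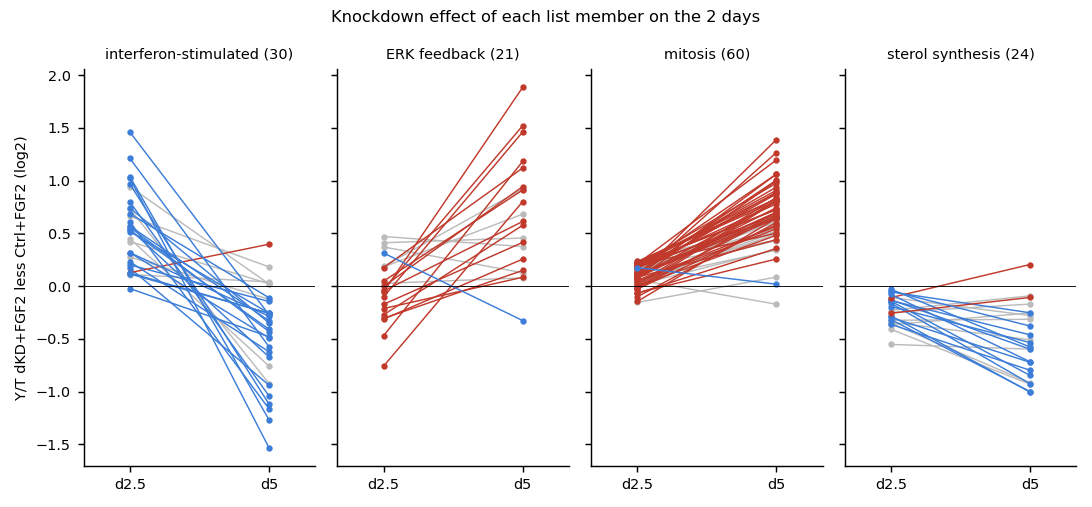
Knockdown effect (log2, vertical axis) of each member of 4 gene lists at d2.5 and d5, joined by a line; lines are red where the difference between days was called above 0, blue where called below 0 and grey otherwise. Of the 30 interferon-stimulated genes 29 have falling lines, those of ERK feedback and mitosis genes mostly rise, and sterol synthesis genes mostly start below 0 and go lower.

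Genes that ERK signaling switches on moved the other way. Of the 21 members tested, knockdown raised 3 and lowered 7 at d2.5 (median -0.03), then raised 15 and lowered 1 at d5 (median 0.61). Of all genes, 11.4% were raised and 12.7% lowered at d2.5, and 16.9% and 17.3% at d5. The difference was called above 0 for 14 and below 0 for 1, where 12.8% and 11.2% of all genes were, with a median of 0.66. In fits without 1 library 13 to 14 were called above 0. The one below 0 was Il17rd, a membrane inhibitor of FGF signaling, at -0.64 ± 0.21. In control cells the median change of the list from d2.5 to d5 was -1.39 on the log2 scale, and in knockdown cells it was -0.75.

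Fosl1, an AP-1 transcription factor, reversed. Fosl1 measured 88.1, 98.1 and 93.3 CPM in the d2.5 Ctrl+FGF2 libraries and 72.6, 70.3 and 59.0 CPM in the d2.5 Y/T dKD+FGF2 libraries, then 5.67, 3.22 and 5.56 CPM in control and 9.70, 12.1 and 10.6 CPM in knockdown libraries at d5. The groups did not overlap on either day, with knockdown lower at d2.5 and higher at d5, although the level at d5 was below that at d2.5 in all libraries. Its effect was -0.47 ± 0.06 at d2.5 and 1.18 ± 0.17 at d5, and the difference 1.65 ± 0.18 (edgeR, adjusted p = 4.4e-08). Myc, a driver of growth and cell cycle entry, had the same order. At d2.5, Myc stood at 149, 157 and 152 CPM in control and 126, 129 and 124 CPM in knockdown libraries, and at d5 at 23.2, 17.1 and 21.9 CPM in control and 31.5, 29.9 and 30.9 CPM in knockdown libraries. The effect was -0.27 ± 0.04 at d2.5 and 0.58 ± 0.08 at d5 and the difference 0.85 ± 0.09 (adjusted p = 2.5e-08). Ier3, an early response gene, also reversed, with -0.76 ± 0.08 at d2.5 and 0.80 ± 0.09 at d5.

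The ERK phosphatase Dusp4 appeared at d5. Dusp4 measured 31.4, 33.2 and 34.4 CPM in the d2.5 Ctrl+FGF2 libraries and 29.99, 32.5 and 32.8 CPM in the d2.5 Y/T dKD+FGF2 libraries, then 2.60, 2.56 and 2.19 CPM in control and 9.10, 8.96 and 9.23 CPM in knockdown libraries at d5. The d2.5 groups overlapped and the d5 groups did not, and the effect at d5 was 1.88 ± 0.15 (3.69-fold), with a difference of 1.94 ± 0.16 (adjusted p = 1.8e-10). The same form was seen in Phlda1 (1.56 ± 0.12, adjusted p = 3.7e-11) and, among the members without per-library values here, in Etv4 (-0.03 at d2.5 and 1.52 at d5) and Spry4 (-0.00 and 0.94). The effect on Dusp6 grew, from 0.18 to 1.12. The other Spry and Spred members were divided, as Spry2 and Spred3 faded, while Spry1, Spred1 and Spred2 had no called difference.

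**Figure D4:**
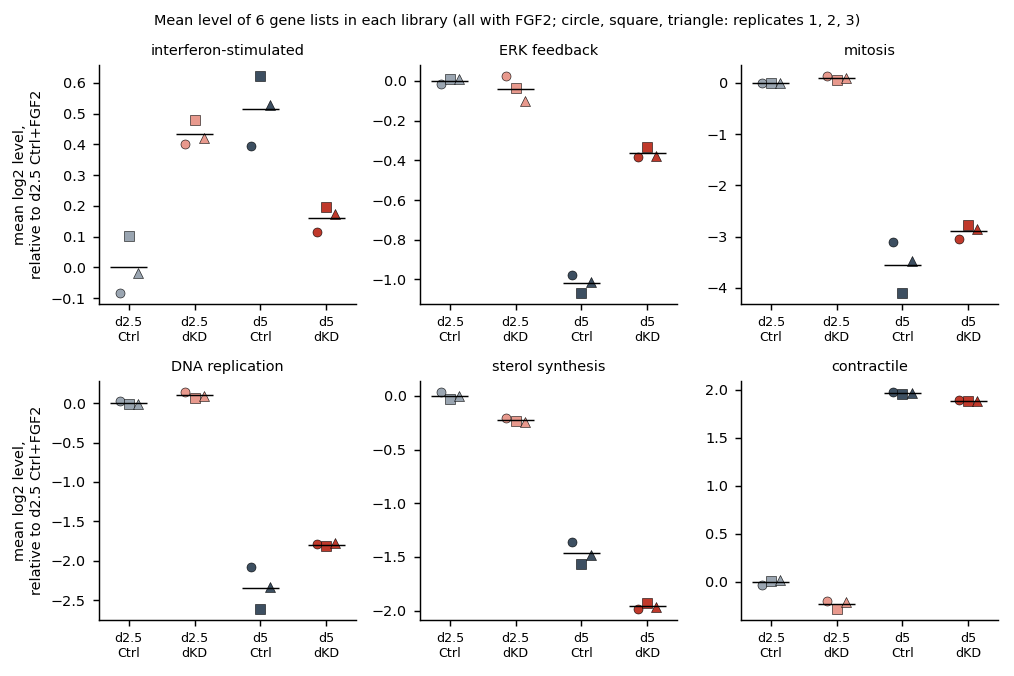
Mean log2 level of 6 gene lists in each of the 12 libraries, relative to the d2.5 Ctrl+FGF2 mean (vertical axis; log2 of CPM plus 0.5), with groups on the horizontal axis, replicates as shapes and group means as lines. Interferon-stimulated genes cross between the days, and the d5 Ctrl+FGF2 libraries spread widely for mitosis and replication, with replicate 2 lowest.

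Genes of the cell cycle were slightly higher under knockdown at d2.5 and more so at d5, when they had fallen steeply in both kinds of cell. Of 60 mitosis genes tested, 14 were raised and 1 lowered at d2.5 (median 0.11), where 11.4% and 12.7% of all genes were, and 55 were raised and none lowered at d5 (median 0.66), where 16.9% and 17.3% of all genes were. In the mean level of the mitosis genes, and of the replication genes, every d2.5 knockdown library lay above every d2.5 control library. A difference between days was called above 0 for 42 and below 0 for 1, the condensin subunit Smc4 at -0.16 (median 0.56). Of 48 DNA replication genes, 11 were raised and 2 lowered at d2.5 and 36 raised and 1 lowered at d5. The difference was called above 0 for 27 and below 0 for 1, the ribonucleotide reductase subunit Rrm1 at -0.47 (median 0.44). Of all genes, 12.8% had a difference called above 0 and 11.2% below 0. From d2.5 to d5 the median change of the mitosis genes was -3.76 in control cells and -3.13 in knockdown cells on the log2 scale.

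The spread among the d5 control libraries bears on this result. The mean log2 level of the mitosis genes, relative to d2.5 Ctrl+FGF2, was -3.10, -4.10 and -3.48 in the d5 Ctrl+FGF2 libraries and -3.04, -2.77 and -2.85 in the d5 Y/T dKD+FGF2 libraries. The lowest knockdown library was thus only just above the highest control library, and control replicate 2 was far below the other two. Without that library the median difference of the mitosis genes was 0.31 and 20 were called above 0, and without control replicate 1 it was 0.93 and 56 were called. DESeq2 called 15, a fit of all 18 libraries 24, and without d5 Y/T dKD+FGF2 replicate 2 there were 27. The direction was the same in each of these fits. Replication genes gave a median between 0.30 and 0.62 when 1 library was left out, and DESeq2 called 18 above 0.

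Mki67, the proliferation antigen Ki-67, showed the same spread. At d2.5, Mki67 stood at 387, 383 and 395 CPM in control and 437, 425 and 451 CPM in knockdown libraries, and at d5 at 36.2, 14.4 and 25.4 CPM in control and 34.5, 43.4 and 42.2 CPM in knockdown libraries. The groups did not overlap at d2.5, where the effect was not called (adjusted p = 0.099), and they overlapped at d5, where it was 0.68 ± 0.14 (edgeR, adjusted p = 0.00038). The difference was 0.51 ± 0.16 (adjusted p = 0.023). It was 0.22 and not called without d5 Ctrl+FGF2 replicate 2 (adjusted p = 0.093), and was also lost without d5 Y/T dKD+FGF2 replicate 2 (0.46) or replicate 3 (0.49). The largest differences of the list were in Spc24, a kinetochore subunit, at 1.30 ± 0.27 (adjusted p = 0.00064), the centrosomal kinase Nek2 at 1.17 ± 0.18 and Ccnb1, cyclin B1, at 0.98 ± 0.18. Ccnb1 measured 158, 149 and 149 CPM in the d2.5 Ctrl+FGF2 libraries and 183, 166 and 179 CPM in the d2.5 Y/T dKD+FGF2 libraries, then 13.1, 5.13 and 7.38 CPM in control and 17.8, 22.0 and 17.7 CPM in knockdown libraries at d5. For Ccnb1 the groups did not overlap on either day. Among replication genes they were in the origin binding subunit Orc1 at 1.47 ± 0.34, the helicase subunit Cdc45 at 1.20 ± 0.20 and the repressor E2f8 at 1.09 ± 0.22, with adjusted p of 0.0018, 3.8e-05 and 0.00037.

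Many mitotic genes are known to carry the cell cycle homology region (CHR), read here as TTTGAA on either strand, often beside a CCAAT box. In choosing genes to show, those with several promoter entries, on an excluded chromosome or with any CHR farther than 200 bases out were passed over. The 100 bases before the start are shown for the 3 mitosis genes with the largest called differences that hold a CHR within 200 bases, with the CHR in capitals, from RefSeq on GRCm38.p6: chr19:6084997-6085096 (+) for Cdca5, chr15:102296193-102296292 (+) for Espl1 and chr2:164769829-164769928 (+) for Ube2c, all on the plus strand.
Cdca5: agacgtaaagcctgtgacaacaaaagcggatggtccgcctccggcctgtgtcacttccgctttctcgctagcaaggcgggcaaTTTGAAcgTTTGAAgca
Espl1: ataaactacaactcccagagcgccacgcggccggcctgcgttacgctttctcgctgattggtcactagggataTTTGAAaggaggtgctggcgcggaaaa
Ube2c: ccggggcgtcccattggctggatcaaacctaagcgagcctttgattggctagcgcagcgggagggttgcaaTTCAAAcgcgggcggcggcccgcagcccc
Cdca5 encodes sororin and Espl1 separase, which hold and cut the ring that joins sister chromatids, and Ube2c the ubiquitin-conjugating enzyme of the anaphase-promoting complex. The CHR letters stood within 250 bases before the start in 19 of 50 mitosis genes with a promoter in the table (38.0%) and in 12.5% of all such genes. CCAAT, on either strand, stood in 37 of the 50 (74.0%) and in 40.9% of all. The differences of these 3 genes between the days were 0.89 ± 0.25, 0.82 ± 0.18 and 0.82 ± 0.21.

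Upstream of the cycle, inhibitors and kinases of G1 were divided. Of 14 members tested the difference was called above 0 for 5 and below 0 for 4, or 64.3% against 24.0% of all genes. Cdk6, a G1 kinase, appeared with 0.02 ± 0.04 at d2.5 and 0.74 ± 0.06 at d5. The related G1 kinase Cdk4 reversed with -0.10 ± 0.03 at d2.5 and 0.19 ± 0.03 at d5. Among the inhibitors, Cdkn1a (p21) reversed from -0.16 to 0.48 and Cdkn1c (p57) went from -0.44 to -1.10, the latter a difference of -0.66 ± 0.21 (adjusted p = 0.02) that was called in 9 of 12 fits without 1 library. At d2.5, Cdkn1a stood at 191, 193 and 188 CPM in control and 169.9, 172 and 168 CPM in knockdown libraries, and at d5 at 82.1, 87.1 and 87.8 CPM in control and 119, 122 and 118 CPM in knockdown libraries. The groups did not overlap on either day. Ribosome biogenesis genes had smaller differences. Of 34, 19 had a difference called above 0 and none below 0, or 55.9% against 24.0% of all genes (median 0.19). The processing factor Rrp9 led at 0.59 ± 0.16, with Ppan at 0.48 ± 0.12 and the snoRNP protein Nop56 at 0.48 ± 0.07. Cytosolic ribosomal proteins differed little, with 10 called above 0 and 6 below 0 of 49 (32.7% against 24.0% of all genes) and a median of 0.05. Rpl8, Rpl13 and Rpsa led with 0.29, 0.28 and 0.25.

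Bone matrix genes had a median difference near 0 and large differences in single members. Of 39 osteoblast genes tested, knockdown raised 15 and lowered 5 at d2.5 (median 0.24) and raised 21 and lowered 8 at d5 (median 0.26). It raised 11.4% and lowered 12.7% of all genes at d2.5, and 16.9% and 17.3% at d5. The difference was called above 0 for 11 and below 0 for 6, or 43.6% against 24.0% of all genes. Its median was 0.06 (0.14 without d5 Ctrl+FGF2 replicate 1). Dmp1, an acidic protein of mineralizing matrix, grew most. Dmp1 measured 476, 451 and 460.3 CPM in the d2.5 Ctrl+FGF2 libraries and 1044, 929 and 1013 CPM in the d2.5 Y/T dKD+FGF2 libraries, then 6.88, 6.12 and 5.92 CPM in control and 52.3, 67.5 and 59.3 CPM in knockdown libraries at d5. The groups did not overlap on either day, and the ratio rose from 2.15 to 9.47 while the level in both kinds of cell fell, with a difference of 2.14 ± 0.12 (edgeR, adjusted p = 4.3e-14). Ibsp, bone sialoprotein, grew as well. At d2.5, Ibsp stood at 42.7, 40.9 and 41.7 CPM in control and 84.6, 76.6 and 79.2 CPM in knockdown libraries, and at d5 at 47.5, 22.4 and 30.6 CPM in control and 136, 185 and 173 CPM in knockdown libraries. Its effect was 0.94 ± 0.12 at d2.5 and 2.31 ± 0.12 at d5, a 1.92-fold and a 4.96-fold increase.

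Col1a1, the main collagen of bone, reversed. Col1a1 measured 2309, 2181 and 2231 CPM in the d2.5 Ctrl+FGF2 libraries and 2021, 2118 and 1985 CPM in the d2.5 Y/T dKD+FGF2 libraries, then 15692, 17596 and 17347 CPM in control and 21615, 22864 and 21544 CPM in knockdown libraries at d5. Knockdown libraries were all lower at d2.5 and all higher at d5, with -0.13 ± 0.04 at d2.5 and 0.38 ± 0.04 at d5 and a difference of 0.52 ± 0.05 (adjusted p = 4.1e-09). Bglap, osteocalcin, appeared at d5, when it measured 0.465, 0.331 and 0.364 CPM in control and 1.63, 2.43 and 1.64 in knockdown libraries (effect 2.29 ± 0.37, adjusted p = 9.8e-06). At d2.5 it had 4 counts in the control and 1 in the knockdown libraries together, too few for a ratio, and the difference between days was called in 8 of 12 fits without 1 library. No difference was called for the early regulators Runx2 (0.04 ± 0.06) and Sp7 (0.19 ± 0.11), of which Sp7 was raised on both days, nor for the phosphatase Alpl, which had 6 and 4 counts at d2.5 and was raised by 0.77 ± 0.08 at d5. On the falling side, Ogn, a small matrix proteoglycan, appeared at -0.65 at d5, and Col11a1 and Omd reversed.

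Of 12 cartilage genes tested, knockdown raised 4 and lowered 1 at d2.5 (median 0.61) and raised 3 and lowered 4 at d5 (median -0.04). The shares of all genes were 11.4% raised and 12.7% lowered at d2.5, and 16.9% and 17.3% at d5. A difference between days was called below 0 for 6 and above 0 for none, or 50% against 24.0% of all genes. Some members had low levels at d2.5. Col2a1, the collagen of cartilage, measured 1.29, 1.04 and 0.677 CPM in control and 3.28, 2.91 and 2.82 in knockdown libraries at d2.5, then 282, 188 and 247 in control and 296, 300.2 and 289 in knockdown libraries at d5. No library crossed into the other group on either day, and the effect shrank from 1.58 ± 0.44 to 0.31 ± 0.07, with a difference (adjusted p = 0.036) that was called in 4 of 12 fits without 1 library. Col10a1, of hypertrophic cartilage, faded from 1.49 ± 0.30 to 0.27 ± 0.14. Prg4, lubricin, had 2 and 9 counts at d2.5, and its difference (adjusted p = 0.047) was called in 4 of 12 such fits. The control levels of the list rose by a median of 3.15 (log2) between the days.

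Fibrillar matrix genes split, with 16 of 50 called above 0 and 12 below 0 (together 56% against 24.0% of all genes) and a median of -0.01. Lox, which crosslinks collagen and elastin, appeared below 0. At d2.5, Lox stood at 494, 452 and 479 CPM in control and 487, 455 and 486 CPM in knockdown libraries, and at d5 at 3475, 3878 and 3582 CPM in control and 1832, 1721 and 1797 CPM in knockdown libraries. The d2.5 groups overlapped and the d5 groups did not, with an effect of -1.03 ± 0.04 at d5 (adjusted p = 9.2e-20) and a difference of -1.03 ± 0.05. Thbs1, a matricellular glycoprotein, grew from -0.31 ± 0.04 to -1.15 ± 0.03, and Timp1, an inhibitor of matrix metalloproteases, from 0.20 ± 0.04 to 0.96 ± 0.05. Collagens Col5a2, Col6a1 and Col6a2 reversed with Col1a1, from below 0 to above it, and Col3a1 grew from 0.15 to 0.70.

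Contractile genes were lower under knockdown at d2.5 and mixed at d5. At d2.5, 1 of 26 was raised and 12 lowered (median -0.22), and at d5, 7 were raised and 10 lowered (median 0.03). Over all genes tested, 11.4% were raised and 12.7% lowered at d2.5, and 16.9% and 17.3% at d5. The difference was called above 0 for 11 and below 0 for 3, which were Mylk, Myh10 and Tpm1. Together these are 53.8% of the list, against 24.0% of all genes. Zyx, the focal adhesion protein zyxin, reversed. Zyx measured 321, 327 and 327 CPM in the d2.5 Ctrl+FGF2 libraries and 195, 211 and 198 CPM in the d2.5 Y/T dKD+FGF2 libraries, then 214, 236 and 234 CPM in control and 273, 267 and 257 CPM in knockdown libraries at d5. Knockdown and control libraries stayed apart on both days, with -0.69 ± 0.04 at d2.5 and 0.22 ± 0.04 at d5 and a difference of 0.91 ± 0.05 (adjusted p = 1.3e-13). Filip1l reversed too, at -0.21 ± 0.07 at d2.5 and 0.35 ± 0.07 at d5, and Srf, the transcription factor of this program, faded from -0.40 to 0.10. Mylk, myosin light chain kinase, went the other way and appeared at -0.59 ± 0.03, as did the nonmuscle myosin Myh10 at -0.57.

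Known Yap/Taz targets did not share a course. Of 22 tested, 4 were raised and 6 lowered at d2.5, and 8 raised and 10 lowered at d5. Among all genes, 11.4% were raised and 12.7% lowered at d2.5, and 16.9% and 17.3% at d5. The difference was called above 0 for 5 and below 0 for 5, or 45.5% against 24.0% of all genes (median 0.07). Ccn1 and Ccn2, matricellular proteins used as reporters of Yap activity, were among the 5 above 0. At d2.5, Ccn1 stood at 147, 140.0 and 149 CPM in control and 131, 126 and 121 CPM in knockdown libraries, and at d5 at 419.5, 452 and 438 CPM in control and 529.8, 555 and 535 CPM in knockdown libraries. Ccn1 reversed, with -0.21 ± 0.04 at d2.5 and 0.31 ± 0.03 at d5 and a difference of 0.52 ± 0.05 (adjusted p = 1.3e-08). Ccn2 appeared. Ccn2 measured 164, 162 and 167 CPM in the d2.5 Ctrl+FGF2 libraries and 187, 170.4 and 173 CPM in the d2.5 Y/T dKD+FGF2 libraries, then 368, 425 and 387 CPM in control and 629.8, 559 and 599 CPM in knockdown libraries at d5. Its libraries did not overlap on either day, but the effect at d2.5 was 0.10 ± 0.05 and not called (adjusted p = 0.12), against 0.60 ± 0.04 at d5. F3, tissue factor, appeared at 0.92 ± 0.05, and Gadd45a, a stress-induced growth arrest gene, reversed from -0.55 ± 0.09 to 0.61 ± 0.05. Ankrd1 had no called difference (-0.60 at d2.5 and -0.51 at d5), and Ccdc80, Rbms3, Axl, Arhgef17 and Nt5e were the 5 below 0. The Tead letters GGAATG stood within 250 bases before the start in 6 of 15 targets with a promoter in the table (40.0%) and in 12.9% of all.

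The Hippo pathway itself differed in few members. Of 27 tested, 3 were called above 0 and 2 below 0, or 18.5% against 24.0% of all genes (median 0.02). Wwc1, encoding Kibra, an upstream activator of the Hippo kinases, had by far the largest difference. At d2.5, Wwc1 stood at 19.7, 19.0 and 17.4 CPM in control and 13.3, 15.7 and 13.6 CPM in knockdown libraries, and at d5 at 19.4, 16.6 and 17.5 CPM in control and 5.58, 4.77 and 4.72 CPM in knockdown libraries. On both days the groups were separate, and the effect grew from -0.39 ± 0.09 to -1.82 ± 0.12 (difference -1.43 ± 0.15, adjusted p = 2.3e-08). The protocadherin Dchs1 had 0.22 ± 0.07 and was called in 11 of 12 fits without 1 library, and Tead2 0.20 ± 0.07, in 5 of 12. Nf2, encoding merlin, had 0.19 ± 0.06 and Yap1 itself was the other member below 0. The kinases Lats1, Lats2, Stk3 and Stk4 had no called difference.

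Sterol synthesis was lowered on both days and more at d5. Knockdown lowered 18 of 24 genes and raised none at d2.5 (median -0.24), and lowered 20 and raised 1 at d5 (median -0.56). For all genes, 12.7% were lowered and 11.4% raised at d2.5, and 17.3% and 16.9% at d5. A difference between days was called below 0 for 13 and above 0 for 2, or 62.5% against 24.0% of all genes (median -0.34). When 1 library was left out, 11 to 14 were called below 0. Msmo1, a sterol demethylase, led. Msmo1 measured 297, 293 and 298 CPM in the d2.5 Ctrl+FGF2 libraries and 268, 262 and 263 CPM in the d2.5 Y/T dKD+FGF2 libraries, then 73.7, 59.7 and 65.4 CPM in control and 34.4, 36.9 and 32.9 CPM in knockdown libraries at d5. No library crossed into the other group on either day, and the effect grew from -0.16 ± 0.04 to -0.92 ± 0.06 (difference adjusted p = 4e-09). Idi1, an isomerase of the isoprenoid steps, grew from -0.14 ± 0.05 to -0.85 ± 0.11, while Srebf2, the transcription factor of the pathway, shrank from -0.26 to -0.11 and Ebp, a sterol isomerase, was the other member above 0. All 16 sterol genes with a promoter in the table held CCAAT within 250 bases before the start, where 40.9% of all genes did. The sterol regulatory element (SRE), searched in 1 exact spelling, stood in 0 of these 16. That spelling stood in only 5 of all 9603 genes (0.0521%), too few for its absence from 16 promoters to be informative.

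Other metabolic lists changed between the days in part. Of 21 genes of fatty acid synthesis and storage, 5 were called above 0 and 5 below 0, or 47.6% against 24.0% of all genes. The lipid droplet coats Plin2 and Plin4 moved apart, with Plin2 reversing from -0.22 ± 0.05 to 0.70 ± 0.05 and Plin4 growing from -0.75 ± 0.15 to -2.33 ± 0.08, and the desaturase Fads1 appeared at -0.79 ± 0.04. Glycolysis and hypoxia genes were lowered at d2.5, 21 of 32 with none raised, and less so at d5, with 13 lowered and 3 raised. Beside them, 12.7% of all genes were lowered and 11.4% raised at d2.5, and 17.3% and 16.9% at d5. The difference was called above 0 for 10 and below 0 for 4, or 43.75% against 24.0% of all genes. Ndrg1, a hypoxia-induced gene, faded from -0.63 ± 0.05 to 0.17 ± 0.07 and the glycolytic regulator Pfkfb3 from -0.83 ± 0.14 to 0.16 ± 0.13, while the aldolase Aldoc grew from -0.31 ± 0.07 to -1.50 ± 0.20. Adm, the vasodilator adrenomedullin, measured 9.64, 9.48 and 10.5 CPM in control and 3.45, 3.47 and 3.70 in knockdown libraries at d2.5, then 14.2, 15.3 and 12.8 in control and 8.42, 7.70 and 5.64 in knockdown libraries at d5. It was lower in every knockdown library on both days, and the called shrinkage from -1.48 ± 0.14 to -0.94 ± 0.12 held in 4 of 12 fits without 1 library.

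Amino acid response genes under Atf4 followed a like course. At d2.5 knockdown lowered 22 of 29 and raised none, and at d5 it lowered 11 and raised 8. It lowered 12.7% and raised 11.4% of all genes at d2.5, and 17.3% and 16.9% at d5. The difference was called above 0 for 9 and below 0 for 2, or 37.9% against 24.0% of all genes. Atf3, a stress-induced transcription factor, reversed. At d2.5, Atf3 stood at 13.6, 16.0 and 13.0 CPM in control and 8.09, 9.37 and 8.61 CPM in knockdown libraries, and at d5 at 7.53, 11.99 and 11.8 CPM in control and 21.6, 18.4 and 19.4 CPM in knockdown libraries. Knockdown and control libraries stayed apart on both days, with -0.70 ± 0.13 at d2.5 and 0.91 ± 0.12 at d5 and a difference of 1.62 ± 0.17 (adjusted p = 2.6e-08). Nupr1, a stress-induced nuclear protein, appeared at 1.14 ± 0.13, and the cystine transporter Slc7a11 at 0.51 ± 0.17, with overlapping groups and a difference called in 10 of 12 fits without 1 library. Genes of ER folding were called above 0 in 13 of 27 and below 0 in 1 (Creb3l2), or 51.9% against 24.0% of all genes. Their median was 0.21, and Atf6 at 0.40, Manf at 0.39 and Hyou1 at 0.38 led. Lysosome genes were called above 0 in 7 of 32 and below 0 in 2, or 28.1% against 24.0% of all genes, which is near the background. The largest values were those of the cathepsins Ctsb (0.85 ± 0.05), Ctsd (0.66 ± 0.05) and Ctsl (0.38 ± 0.05), which were at or below control at d2.5 and raised at d5. Ctsb measured 488, 481 and 488 CPM in the d2.5 Ctrl+FGF2 libraries and 478, 468 and 461 CPM in the d2.5 Y/T dKD+FGF2 libraries, then 1073, 1226 and 1158 CPM in control and 1995, 2034 and 1993 CPM in knockdown libraries at d5. Of 36 nuclear genes of oxidative phosphorylation, 4 were called above 0 and 4 below 0, or 22.2% against 24.0% of all genes, which is near the background. The largest values were those of Uqcrq (0.42), Cyc1 (0.41) and Atp5d (0.26).

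Of 28 Wnt genes, 5 were called above 0 and 7 below 0, or 42.9% against 24.0% of all genes. The ligand Wnt4 reversed from -0.62 ± 0.23 to 0.87 ± 0.13 and the secreted antagonist Frzb from 1.22 ± 0.42 to -0.56 ± 0.07, in opposite directions. The feedback gene Nkd2 appeared, with a difference of 1.63 ± 0.55 called in 9 of 12 fits without 1 library. Counts at d2.5 were few, with 13 in control and 27 in knockdown libraries for Frzb and 26 and 12 for Nkd2. The Wnt target Axin2 had no called difference (0.23 ± 0.48). At d2.5, Wnt4 stood at 2.52, 1.93 and 2.30 CPM in control and 1.52, 1.18 and 1.69 CPM in knockdown libraries, and at d5 at 5.86, 4.80 and 5.47 CPM in control and 9.70, 9.88 and 9.74 CPM in knockdown libraries. On both days the groups were separate. Of 34 BMP and TGF-beta genes, 6 were called above 0 and 8 below 0, or 41.2% against 24.0% of all genes. The BMP antagonist Chrdl1 reversed from 0.93 ± 0.13 to -0.33 ± 0.06 and the target Id4 from 0.34 ± 0.05 to -0.35 ± 0.05, and Ltbp2, a latent TGF-beta binding protein family member, grew from -0.30 ± 0.07 to -1.05 ± 0.07.

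Of 12 Notch genes, 5 were called above 0 and none below 0, or 41.7% against 24.0% of all genes (median 0.40). These were Hes6, Rfng and, with larger values, the target Hes1 at 0.83 ± 0.18, the ligand Jag1 at 0.52 ± 0.09 and the modifier Lfng at 0.51 ± 0.17. Lfng was called in 7 of 12 fits without 1 library. Hes1 measured 15.2, 13.4 and 12.5 CPM in the d2.5 Ctrl+FGF2 libraries and 16.3, 16.1 and 15.9 CPM in the d2.5 Y/T dKD+FGF2 libraries, then 3.72, 4.05 and 2.92 CPM in control and 7.81, 7.45 and 7.18 CPM in knockdown libraries at d5. No library crossed into the other group on either day, and the effect at d2.5 was not called. Of 18 IGF genes, 2 were called above 0 and 1 below 0, or 16.7% against 24.0% of all genes, so the list held fewer calls than the background. They were Stc1 (0.83 ± 0.25), Igfbp6 (0.33 ± 0.07) and Igf2bp3 (-0.43 ± 0.14, called in 7 of 12). Of 25 chemokine and inflammatory genes, 6 were called above 0 and 4 below 0, or 40% against 24.0% of all genes. Complement C3 appeared at -2.47 ± 0.12, the chemokine Ccl7 at 0.98 ± 0.14, and the cytokine Lif reversed from -0.50 ± 0.14 to 0.84 ± 0.29. Of 25 p53 targets, 6 were called above 0 and 5 below 0, or 44% against 24.0% of all genes. Perp, a desmosomal protein, appeared at -2.40 ± 0.17, the death receptor Fas reversed from 0.51 ± 0.16 to -0.83 ± 0.11 and the BH3 protein Pmaip1 appeared at 0.66 ± 0.15.

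Neural crest and stemness factors changed often, 10 of 24 above 0 and 6 below 0 (66.7% against 24.0% of all genes), in a mixed direction. Nes, the intermediate filament nestin, grew. At d2.5, Nes stood at 5.90, 5.40 and 6.63 CPM in control and 9.77, 7.96 and 8.61 CPM in knockdown libraries, and at d5 at 1.49, 2.15 and 1.37 CPM in control and 6.27, 4.27 and 7.28 CPM in knockdown libraries. Knockdown and control libraries stayed apart on both days, with 0.55 ± 0.14 at d2.5 and 1.79 ± 0.22 at d5. Hmga2, a chromatin protein of embryonic cells, grew from 0.24 ± 0.04 to 1.03 ± 0.04, Snai2 reversed from -0.24 to 0.54, and Pax3, a neural crest specifier, appeared at -0.77 ± 0.10. Sox2, a stemness factor, was not called for the difference (0.20 ± 0.10), nor was Klf4 (-0.11 ± 0.09). Gdpd5 faded from -0.59 ± 0.12 to -0.02 ± 0.17, in a call that held in 4 of 12 fits without 1 library.

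Beyond the lists, the most reversed genes from lower to higher were Ephb2, Slpi, Ier3, Dusp8 and Atf3, ranked by the smaller of their effects. Ephb2, a receptor of ephrin-B ligands, had -0.89 ± 0.32 at d2.5 and 1.16 ± 0.22 at d5, Slpi, a secreted protease inhibitor, -0.85 ± 0.18 at d2.5 and 1.10 ± 0.19 at d5, and Dusp8, a phosphatase of stress kinases, -0.73 ± 0.24 at d2.5 and 1.03 ± 0.33 at d5. Slpi measured 4.46, 3.998 and 5.01 CPM in the d2.5 Ctrl+FGF2 libraries and 2.36, 2.99 and 2.09 CPM in the d2.5 Y/T dKD+FGF2 libraries, then 2.79, 1.90 and 2.37 CPM in control and 5.24, 5.44 and 4.31 CPM in knockdown libraries at d5. On both days the groups were separate. From higher to lower they were Ifit3, Apod, Gdpd2, Ypel1 and Cdo1. Cdo1 encodes cysteine dioxygenase, which starts the breakdown of cysteine. At d2.5, Cdo1 stood at 2.01, 2.96 and 2.44 CPM in control and 5.64, 6.70 and 6.52 CPM in knockdown libraries, and at d5 at 20.7, 24.9 and 23.5 CPM in control and 13.3, 14.4 and 16.2 CPM in knockdown libraries. Control and knockdown both rose with time, control more, so that knockdown was above control in every library at d2.5 and below it in every library at d5 (1.35 ± 0.17 at d2.5 and -0.67 ± 0.10 at d5, difference adjusted p = 3.2e-09). Apod, a lipid carrier, had 0.86 ± 0.32 at d2.5 and -0.85 ± 0.07 at d5, Gdpd2 1.05 ± 0.24 at d2.5 and -0.80 ± 0.11 at d5 and Ypel1 0.81 ± 0.30 at d2.5 and -0.71 ± 0.15 at d5.

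**Figure D5:**
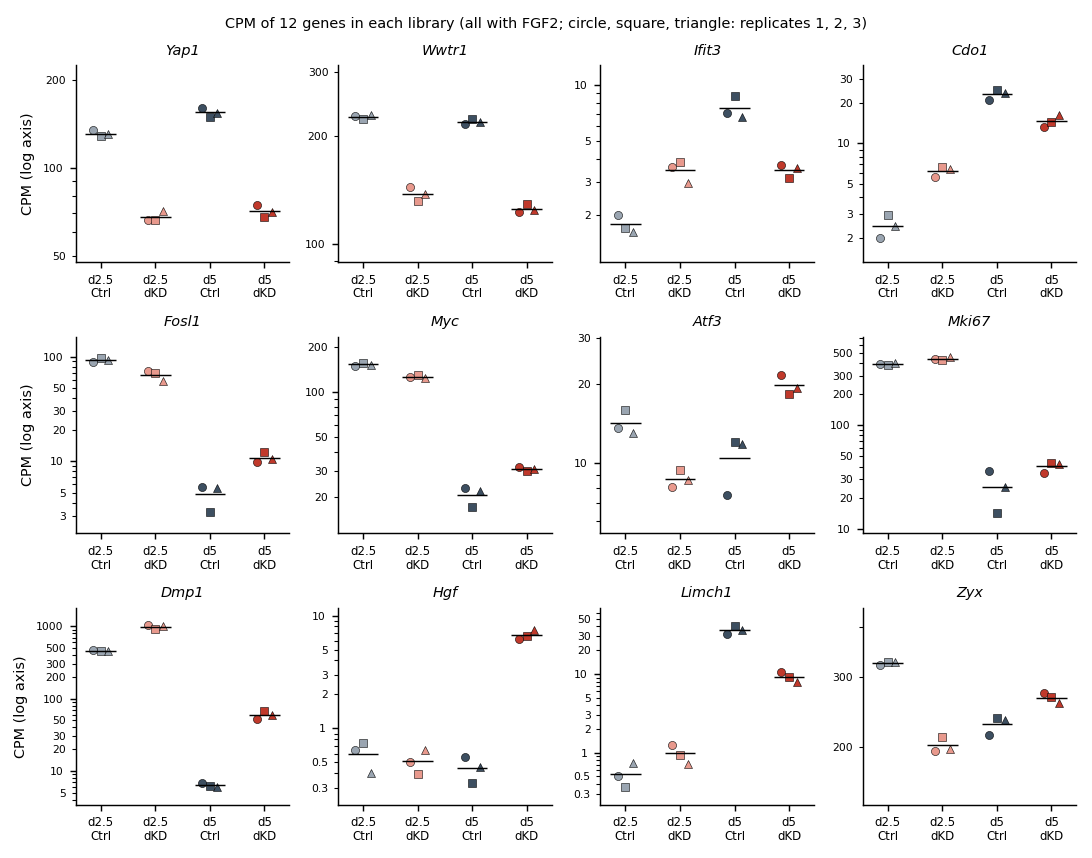
CPM (log axis) of 12 genes in each of the 12 libraries, with groups on the horizontal axis, replicates as shapes and group means as lines. Yap1 and Wwtr1 are lower under knockdown on both days, Ifit3, Cdo1, Fosl1, Myc, Atf3 and Zyx change sides between the days, and the d5 groups of Mki67 overlap.

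Among genes whose effect appeared, Hgf, the ligand of the receptor Met, changed most. Hgf measured 0.647, 0.740 and 0.406 CPM in the d2.5 Ctrl+FGF2 libraries and 0.505, 0.394 and 0.644 CPM in the d2.5 Y/T dKD+FGF2 libraries, then 0.558, 0.331 and 0.456 CPM in control and 6.18, 6.53 and 7.48 CPM in knockdown libraries at d5. The groups overlapped at d2.5 and were far apart at d5, where knockdown was 14.8-fold higher, with a difference of 4.09 ± 0.53 (adjusted p = 6.8e-07). Nptx1, a neuronal pentraxin, and March4, a membrane ubiquitin ligase, had fallen in control cells by d5 and less in knockdown cells, with effects of 2.72 ± 0.25 and 2.66 ± 0.19. Ndnf, a secreted factor, had 7 and 2 counts at d2.5 and an effect of 1.06 ± 0.10 at d5, and its difference was called in 5 of 12 fits without 1 library. Below 0 stood Limch1, an actin-associated activator of nonmuscle myosin. At d2.5, Limch1 stood at 0.503, 0.370 and 0.744 CPM in control and 1.26, 0.945 and 0.724 CPM in knockdown libraries, and at d5 at 32.0, 40.8 and 35.8 CPM in control and 10.5, 9.21 and 7.79 CPM in knockdown libraries. The groups overlapped at d2.5 and did not at d5, with -1.97 ± 0.11 at d5 and a difference of -2.80 ± 0.44 (adjusted p = 1.3e-05). Pde1a, a cyclic nucleotide phosphodiesterase, had -2.99 ± 0.25 at d5 and the acyl-CoA synthetase Acsl6 -2.44 ± 0.20. Klra1, of a family of near-identical receptor genes, had 9 and 1 counts at d5, and its difference was called in 4 of 12 such fits.

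Effects that faded above 0 belonged to the zinc transporter Slc39a7, thrombomodulin (Thbd), Rnd1 and Ly6c1, of the near-identical Ly6 family, with differences of 1.25, 1.10, 1.08 and 1.06. Ly6c1 measured 79.1, 77.4 and 82.4 CPM in the d2.5 Ctrl+FGF2 libraries and 43.9, 48.5 and 44.2 CPM in the d2.5 Y/T dKD+FGF2 libraries, then 5.95, 4.05 and 4.56 CPM in control and 6.10, 4.69 and 6.56 CPM in knockdown libraries at d5. Knockdown libraries were lower throughout at d2.5, and the groups overlapped at d5. Below 0 were Ifi44, Col10a1, Kank3 (-1.36) and the EGF receptor ligand Btc (-1.37, called in 4 of 12 fits without 1 library). Effects that grew above 0 belonged to Dmp1, the protease inhibitor Serpinb2 (0.49 to 3.21), the ERK phosphatase Dusp2 (0.35 to 2.76) and the guanine deaminase Gda (0.29 to 1.69). At d2.5, Serpinb2 stood at 10.9, 11.1 and 11.6 CPM in control and 15.8, 15.1 and 16.5 CPM in knockdown libraries, and at d5 at 0.279, 0.248 and 0.364 CPM in control and 2.23, 3.43 and 2.77 CPM in knockdown libraries. Its level was far lower at d5, and the groups did not overlap on either day. Below 0 grew Aldh1a7, mesothelin (Msln, -0.69 to -2.71), the protocadherin Fat2 (-0.45 to -2.33, called in 9 of 12) and podocalyxin (Podxl, -0.47 to -2.21). Fat2 had 32 counts in control and 6 in knockdown libraries at d5. Aldh1a7 measured 13.9, 14.2 and 11.98 CPM in the d2.5 Ctrl+FGF2 libraries and 6.401, 8.27 and 6.52 CPM in the d2.5 Y/T dKD+FGF2 libraries, then 448, 408 and 429 CPM in control and 73.6, 75.6 and 76.0 CPM in knockdown libraries at d5. Control cells rose more than knockdown cells, and Aldh1a7 has a near-identical copy, so its counts are uncertain.

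Few effects shrank. Rgs4, which switches off G protein signaling, went from 1.67 ± 0.13 to 0.52 ± 0.08 and Pcp4l1 from 1.88 ± 0.19 to 0.60 ± 0.10, both higher in every knockdown library on both days. At d2.5, Rgs4 stood at 4.17, 4.07 and 3.59 CPM in control and 12.4, 11.97 and 13.3 CPM in knockdown libraries, and at d5 at 25.02, 30.7 and 24.9 CPM in control and 41.7, 35.9 and 38.5 CPM in knockdown libraries. The calcium channel gene Cacna1g went from 1.33 to 0.20 (called in 10 of 12 fits without 1 library), and among lowered genes the transcription factor Cebpd from -0.86 to -0.26, Ly6a (Sca-1) from -0.73 to -0.20 and Fam214b from -0.63 to -0.18 (9 of 12). Of the other genes with the strongest response at d2.5, Tmie, with 10 and 30 counts at d2.5, faded (difference -1.89 ± 0.54, called in 11 of 12), and Sorbs2 (-1.46 and -1.71), Cacng7 (-1.20 and -1.15), Epha1 (-0.91 and -1.12) and Bbc3 (-0.94 and -0.64) had no called difference between the days.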

How the data were processed

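Poly(A) RNA of O9-1 cells was sequenced with a SMARTER mRNA-Seq kit. The deposited files hold raw read counts per gene in the layout of STAR's gene counts. Per the labels, the submitters' processing notes name FastQC, STAR, Picard, featureCounts and mm10, and versions are not given in the sources used here. The reverse-strand counts, which held 96.0 to 96.4% of stranded gene counts, were used; reads without a gene were left out (30.8 to 34.4%). The 12 FGF2-treated libraries were fitted together, as 4 group means, with edgeR 4.0.16 in R 4.3.3 (TMM factors, filterByExpr, quasi-likelihood test, Benjamini-Hochberg adjustment over 13911 genes). The script was tested on simulated data, where false calls for the difference between days made up more of the calls than the adjusted threshold of 0.05 implies. This was 1 draw with fewer changed genes than were called here, and the share of false calls in the data is not known. Alternatives used DESeq2 1.42.0 and limma 3.58.1. Of the 18 libraries, 6 were used only in 1 alternative. Members and lists were chosen with earlier results of these data known.

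Named genes were the siRNA targets, genes the study names and those with the strongest response at d2.5; the 5 most reversed genes of each direction and the 4 with the largest differences in each direction of the other classes, where the mean log2 CPM reached 1; and up to 3 called members of each list with the largest differences. Other genes were named after their values were seen, and some genes that the rule names are not reported here. List levels are means of log2(CPM + 0.5). Promoters are those of RefSeq on GRCm38.p6.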

Additional observations from a re-analysis of the deposited data

Results flagged for a closer look

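The difference between the days was tested for each gene, as an interaction of knockdown with day in edgeR's quasi-likelihood test, and the named genes with a called difference are given here with that difference on the log2 scale. Day and batch cannot be told apart in any of them.

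Knockdown effects of opposite sign on the 2 days were called in 32 of these genes. Those more positive at d5 were Ephb2 (2.05), Slpi (1.96), Dusp8 (1.76), Fosl1 (1.65), Atf3 (1.62), Ier3 (1.56), Wnt4 (1.49), Lif (1.34), Gadd45a (1.15), Plin2 (0.92), Zyx (0.91) and Myc (0.85). Smaller values were those of Ctsd (0.66), Cdkn1a (0.64), Filip1l (0.56), Col1a1 (0.52), Ccn1 (0.52), Cyc1 (0.41), Hyou1 (0.38), Rpl8 (0.29), Cdk4 (0.28) and Rpsa (0.25). Those more negative at d5 were Ifit3b (-2.56), Ifit3 (-2.09), Cdo1 (-2.01), Gdpd2 (-1.85), Frzb (-1.78), Apod (-1.72), Ypel1 (-1.52), Fas (-1.35), Chrdl1 (-1.26) and Id4 (-0.69).

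An effect called at d5 alone was found in 43. Those more positive at d5 were Hgf (4.09), Bglap (3.78), Nptx1 (2.96), March4 (2.72), Ndnf (2.51), Dusp4 (1.94), Nkd2 (1.63), Phlda1 (1.56), Ccl7 (1.49), Orc1 (1.47), Spc24 (1.30) and Cdc45 (1.20). Smaller values were those of Nek2 (1.17), Nupr1 (1.11), E2f8 (1.09), F3 (0.91), Pmaip1 (0.87), Ctsb (0.85), Hes1 (0.83), Cdk6 (0.72), Rrp9 (0.59), Slc7a11 (0.54), Jag1 (0.52) and Mki67 (0.51). The smallest were those of Ccn2 (0.49), Ppan (0.48), Nop56 (0.48), Atf6 (0.40), Manf (0.39), Ctsl (0.38), Dchs1 (0.22) and Tead2 (0.20). Those more negative at d5 were Pde1a (-2.999), Klra1 (-2.87), Limch1 (-2.80), Acsl6 (-2.48), Perp (-2.04), C3 (-1.88), Lox (-1.03), Pax3 (-0.88), Fads1 (-0.73), Mylk (-0.67) and Cdkn1c (-0.66).

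In 17 the effect was called at d2.5 alone. Those more positive at d5 were Slc39a7 (1.25), Thbd (1.10), Rnd1 (1.08), Ly6c1 (1.06), Pfkfb3 (1.00), Ndrg1 (0.80), Gdpd5 (0.58), Lfng (0.51), Uqcrq (0.42), Rpl13 (0.28) and Atp5d (0.26). Those more negative at d5 were Oas2 (-2.30), Tmie (-1.89), Ifi44 (-1.78), Btc (-1.37), Kank3 (-1.36) and Col10a1 (-1.22).

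The effect was larger at d5 in 22. Those more positive at d5 were Serpinb2 (2.72), Dusp2 (2.41), Dmp1 (2.14), Gda (1.40), Ibsp (1.37), Nes (1.24), Ccnb1 (0.98), Stc1 (0.83), Hmga2 (0.80) and Timp1 (0.76). Those more negative at d5 were Msln (-2.01), Fat2 (-1.88), Podxl (-1.73), Aldh1a7 (-1.60), Plin4 (-1.58), Wwc1 (-1.43), Aldoc (-1.19), Thbs1 (-0.85), Msmo1 (-0.76), Ltbp2 (-0.75), Idi1 (-0.70) and Yap1 (-0.17).

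It was smaller at d5 in 9. Those more positive at d5 were Cebpd (0.60), Adm (0.53), Ly6a (0.53), Fam214b (0.44) and Igfbp6 (0.33). Those more negative at d5 were Pcp4l1 (-1.27), Col2a1 (-1.27), Rgs4 (-1.15) and Cacna1g (-1.13).

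Neither day had a called effect in 2. Those more negative at d5 were Prg4 (-2.87) and Igf2bp3 (-0.43).

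Bglap, Ndnf and Prg4 had under 10 counts in a group at d2.5, as had Klra1, Fat2 and Oas2 at d5. The fitted differences of these genes depend on the small count added before the logarithm and are no measure of size.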

How the results depend on the processing

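The total of 3340 called differences was 2463 in DESeq2, 3734 with limma voom and sample weights, 2973 with all 18 libraries, 3146 without a filter on low counts and 2850 to 3375 when 1 library was left out. Same-numbered replicates did not deviate together (r between -0.066 and -0.0017). No pairing by number was visible in these values, which cannot tell whether cultures were shared. A fit with the replicate number as a block gave 3160. Of the named genes, 6 then lost their call, 15 did so in DESeq2 and 4 to 13 when 1 library was left out. DESeq2 gave 285 reversed genes, 278 of them among the 423, and 551 faded genes, 486 of them among the 796. It gave 1253 appeared genes, of which 1128 were among the 1626. Only 31 of the 193 genes called on neither day were shared with DESeq2. Genes that grew numbered 166 and those that shrank 29 in DESeq2, and 29 shrank with all 18 libraries. At an adjusted p under 0.01, 2042 genes were called at d2.5 and 2053 for the difference (1126 above 0, 927 below 0), with 212 reversed, 426 faded, 118 grown and 18 shrunk. At 1.5-fold or more there were 282 at d2.5, 1161 at d5 and 901 differences (457 above 0, 444 below 0), with 23 reversed, 537 appeared, 80 faded, 15 grown and 1 shrunk. At 2-fold or more there were 83, 455 and 345 (148 above 0, 197 below 0), with 2 reversed, 194 appeared, 27 faded, 2 grown, 0 shrunk and 120 on neither day.

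List medians that moved by more than the replicate spread were p53 targets at -0.0540 and cartilage at -0.65 with voom, and Hippo at 0.0558 and cartilage at -0.62 with counts of both strands. When 1 library was left out, reversed genes ranged from 294 to 493, faded from 542 to 835 and appeared from 1399 to 1637. Grown genes then ranged from 169 to 316 and shrunk from 25 to 56. List medians then ranged from -0.0136 to 0.0614 (Hippo), 0.62 to 0.84 (ERK feedback), 0.0740 to 0.25 (G1), -0.0565 to 0.0337 (p53), -0.83 to -0.60 (cartilage), 0.16 to 0.26 (contractile), 0.0781 to 0.19 (hypoxia), 0.0428 to 0.20 (chemokine), -0.0248 to 0.0426 (IGF), 0.0888 to 0.21 (neural crest), 0.0375 to 0.0794 (ribosome), 0.17 to 0.25 (ribosome biogenesis), 0.0418 to 0.139 (osteoblast), 0.0209 to 0.105 (Yap/Taz targets) -0.0020 to 0.170 (Wnt), -0.0338 to 0.0485 (matrix), -0.0208 to 0.0433 (BMP and TGF-beta), -0.0099 to 0.0540 (lipid), -0.0524 to -0.0084 (oxidative phosphorylation) and 0.31 to 0.93 (mitosis). The Yap1 difference lost its call at -0.17 in DESeq2, with RLE factors, with all 18 libraries and with counts of both strands, at -0.18 without a filter, and ranged from -0.19 to -0.12 when 1 library was left out. The cause of these changes was not tested. Genes with few counts on a day, such as Bglap and Prg4, are limited by depth.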
